A study of Homo sapiens with 15 samples.

Results

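After 24 h of THZ1, the RNA of PATU-8988T pancreatic cancer cells was dominated by fewer genes than in DMSO. Transcripts of cytosolic ribosomal proteins and of the mitochondrial genome took larger shares of the counts, while transcripts of mitosis, DNA repair, Mediator and ribosome assembly genes took smaller ones. Immediate-early regulators such as JUNB and KLF10 stood far above DMSO under every scaling tried, and HSPA8, LDHA, PCNA and KEAP1 stood far below it. The comparison set 3 THZ1 24 h libraries against 3 DMSO libraries. It covered 14461 of the 58676 genes of the count table, namely all genes that passed a filter on low counts.

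The cells were exposed to 100 nM THZ1 for 24 h, and the DMSO cells received 0.1% of that solvent, with no time of exposure in the labels. Libraries of 100 nM THZ1 for 4 h and of 100 nM YKL-5-124 for 24 h, 3 of each, were used for direct contrasts, and the whole series held 15 libraries. All groups were the same established cell line, so every result describes 1 line in culture. The labels number the libraries without saying whether they were separate cultures, so the p-values reflect the spread among these samples alone, which may be technical.

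THZ1 is a covalent inhibitor of CDK7 that is also known to bind CDK12 and CDK13, and YKL-5-124 is a covalent CDK7 inhibitor. CDK7 works with cyclin H and MAT1 in the kinase module of TFIIH. It phosphorylates the tail of RNA polymerase II as the enzyme leaves a promoter, and it activates the kinases that drive the cell cycle. The mitochondrial genome is transcribed by a separate polymerase that does not use TFIIH. When synthesis slows, what remains in a cell depends on how long each transcript lasts, and RNA sequencing reports shares of a library, not amounts per cell.

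The libraries held 15567057 to 18114103 counts in THZ1 24 h and 19651529 to 20517571 counts in DMSO. Levels are given in CPM, the count per 1e+06 counts of the scaled library. Across the 9389 genes that averaged 5 CPM or more, the median gene had a standard deviation of 0.178 log2 units within THZ1 24 h and 0.179 within DMSO. DMSO replicate 2 stood apart from the other DMSO libraries along transcript length, as described with that measure; without it, the test against DMSO under TMM called 4589 genes higher and 6133 lower, and the effective number of genes differed by −2180 instead of −2330. In bulk RNA, fewer cells of a type and less RNA per cell cannot be told apart. Among the cell's own markers, the epithelial keratin KRT8 had 3100, 2410 and 2500 CPM in THZ1 24 h, against 1090, 910 and 1180 CPM in DMSO. The mesenchymal filament VIM had 303, 280 and 272 CPM in THZ1 24 h, against 165, 173 and 167 CPM in DMSO. KRT18, the partner keratin of KRT8, fell, with 380, 250 and 238 CPM in THZ1 24 h, against 439, 431 and 442 CPM in DMSO. CDH1, the epithelial cadherin, rose, with 6.76, 3.47 and 5.84 CPM in THZ1 24 h, against 0.222, 0.193 and 0.295 CPM in DMSO, so it was nearly absent there, and the ductal keratin KRT19 did not pass the filter, with 2 counts over THZ1 24 h and 0 over DMSO. Of 22 markers of fibroblasts, endothelium and immune cells, 5 passed the filter. Of these, 2 rose, 0 fell and 3 were not called under TMM (median log2 fold change 3.51), but 0 rose and 2 fell with the ribosomal protein reference. The share of counts of this list was very small and overlapped between the groups, at 0.000263% to 0.000823% in THZ1 24 h and 0.000315% to 0.000514% in DMSO. The median of 3.51 thus rests on few counts. CD3E, CD3D and MS4A1, which define T and B cells, had 0 counts in both groups. Of 18 markers of acinar, islet and liver cells, 2 passed. Those 2, SYP and CHGB, are secretory vesicle genes of endocrine cells, and both rose, by 1.96 and 2.69 on the log2 scale. CHGB had 9.54, 12 and 10.2 CPM in THZ1 24 h, against 1.55, 2.13 and 1.22 CPM in DMSO.

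No source used here says whether the counting used strand, so reads of overlapping genes cannot be told apart. Among the genes named in the following, this holds for RPL30, RPLP2, HSP90AA1, HSPA8, TM9SF3, KIF25, TRIM32, GTF2H3, MEPCE, POLR2B, POLR2E, POLR2I, TAF5, TAF10, MED13, LEO1, CSTF2T, PCF11, PRPF4, SNRPD2, CNOT2, CNOT8, MRPS18B, WARS, PSMD2, TYMS, RRM2, PDIA6, DNAJB1, FTH1, MVK, HK2, BHLHE40, NR1D1, CLOCK, TJP1, TAGLN, ITGB1, COL18A1, CFL1, TUBB6, ZNF146 and SNHG6. Overlaps were sought among the tested genes only, so a gene not listed here may still overlap one that was not tested. Genes with near-identical copies, such as histones, HLA genes and ribosomal proteins with processed pseudogenes, may share reads with those copies.

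Library composition was the broadest difference. Cytosolic ribosomal protein mRNAs took 23.4%, 22.3% and 21.0% of the counts in the 3 THZ1 24 h libraries, against 11.5%, 9.12% and 11.7% in the DMSO libraries. The mitochondrial genome took 3.46%, 4.44% and 4.34% in THZ1 24 h, against 0.910%, 1.25% and 0.862% in DMSO. Nuclear-encoded subunits of the respiratory chain took 2.36%, 2.18% and 2.04% in THZ1 24 h, against 1.54%, 1.28% and 1.55% in DMSO. The groups did not overlap in any of the 3 shares. The effective number of genes, the exponential of the Shannon entropy of the shares, was 1313, 1325 and 1373 in THZ1 24 h, against 3517, 3968 and 3524 in DMSO. With each library thinned to 15567057 counts, 11689, 11689 and 11836 genes had at least 10 counts in THZ1 24 h, against 12717, 13128 and 12749 in DMSO. An exact two-sided permutation test gave p = 0.1 for each of these 5 measures, the smallest that 3 libraries against 3 can give.

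**Figure D1:**
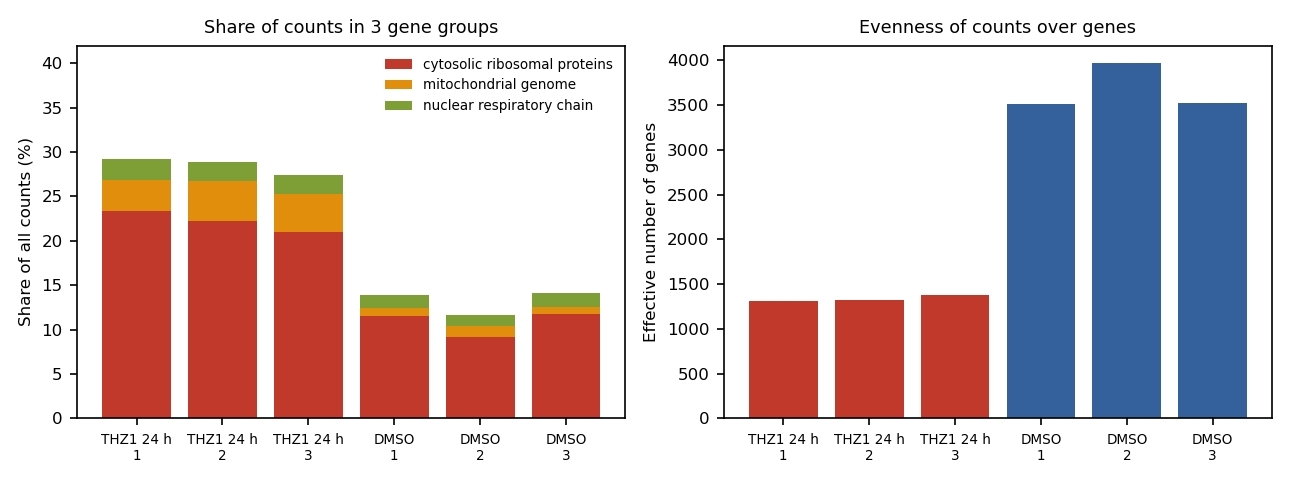
Left, stacked bars of the share of all counts (percent) in cytosolic ribosomal protein mRNAs, the mitochondrial genome and nuclear respiratory chain genes, for each THZ1 24 h library and each DMSO library. Right, the effective number of genes in the same libraries, which lies between 1313 and 1373 in THZ1 24 h and between 3517 and 3968 in DMSO.

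Individual genes show where the counts went. RPSA, a protein of the small ribosomal subunit, had 24100, 21300 and 19600 CPM in THZ1 24 h, against 3950, 2450 and 3990 CPM in DMSO. FTL, the light chain of the iron store ferritin, had 19500, 13100 and 12300 CPM in THZ1 24 h, against 2980, 1610 and 2710 CPM in DMSO. MT-RNR2, the mitochondrial large ribosomal RNA, had 14900, 24800 and 23400 CPM in THZ1 24 h, against 578, 991 and 524 CPM in DMSO. All 3 were among the 8 genes with the largest gain in share, and none overlapped between the groups. In the opposite direction, HSPA8, the constitutive cytosolic chaperone, had 247, 183 and 188 CPM in THZ1 24 h, against 3630, 2810 and 3530 CPM in DMSO. LDHA, which converts pyruvate to lactate, had 182, 197 and 191 CPM in THZ1 24 h, against 2010, 1660 and 1950 CPM in DMSO. Their log2 fold changes were −4.01 ± 0.21 and −3.30 ± 0.11 (SE), and neither gene overlapped between the groups.

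Because the composition changed, each fold change depends on what is held constant. TMM scaling, which trims extreme genes and assumes that the rest balance, put 4668 genes higher (32.3% of those tested) and 6356 lower (44.0%), at an adjusted p under 0.05 by the quasi-likelihood F test of edgeR, adjusted after Benjamini and Hochberg. RLE factors gave 5457 higher and 5471 lower, and upper-quartile factors gave 5615 and 5286. Library totals gave 2266 higher (15.7%) and 9384 lower (64.9%). With the summed ribosomal protein mRNAs as the reference the counts were 573 (3.96%) and 11731 (81.1%), and with the mRNAs of the mitochondrial genome they were 270 (1.87%) and 12871 (89.0%). Relative to TMM, the log2 fold change of the median gene moved by 0.32 with RLE factors, 0.39 with upper-quartile factors, −1.13 with library totals, −2.19 with the ribosomal protein reference and −2.83 with the mitochondrial reference. The table holds no measure of RNA per cell, so none of these can be called the true zero. Values in the following use TMM unless another scaling is named, and "rose" or "fell" means a call under TMM.

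**Figure D2:**
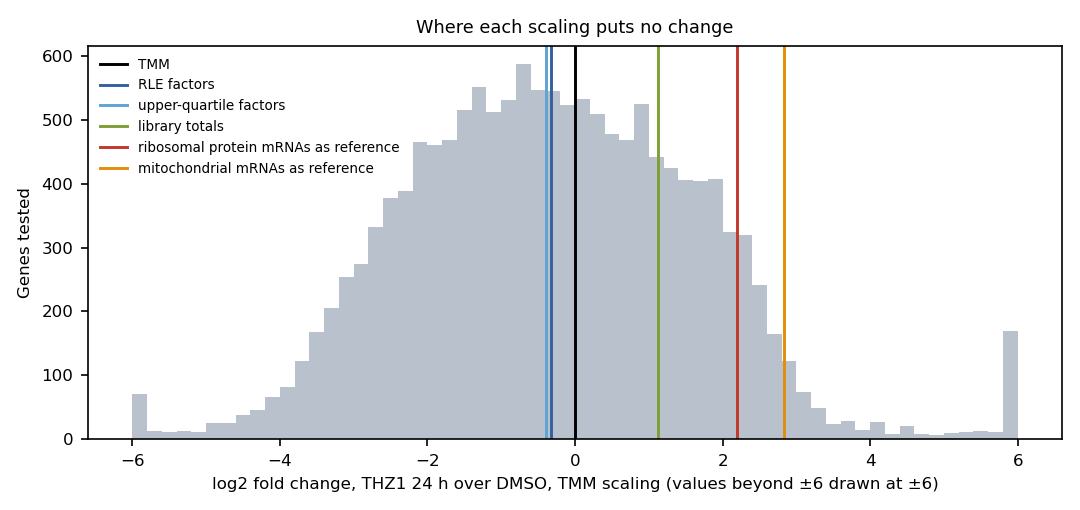
Histogram of the TMM log2 fold change of the 14461 genes, THZ1 24 h over DMSO (x axis), with the number of genes per bin of 0.2 (y axis). Vertical lines mark the TMM value at which a gene is unchanged under each of the 6 scalings, so that genes right of the mitochondrial line, at 2.83, lie above zero under all of them.

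Calls that held under every scaling were few upward and many downward, and the choice of scalings sets that imbalance. Relative to TMM, the shifts ran from 0.39 with upper-quartile factors to −2.83 with the mitochondrial reference. A rise thus had to clear a larger shift than a fall. Without the 2 internal references, 2266 genes were higher and 5286 lower under the remaining 4 scalings. Under all 6 scalings, 270 genes were higher (1.87% of those tested) and 5286 were lower (36.6%). Another 4072 genes (28.2%) were called higher under at least 1 scaling and lower under another, and 47 were called under none. The 270 genes included 96 protein-coding genes, 44 antisense RNAs, 41 lincRNAs and 27 processed pseudogenes. Their median level was 4.05 CPM in THZ1 24 h and 0.0292 CPM in DMSO. Of them, 217 were over the filter's cutoff of 0.509 CPM in all THZ1 24 h libraries and in no DMSO library, so they entered the test through the group where they were high. The 5286 genes had a median of 5.19 CPM in THZ1 24 h and 24.1 CPM in DMSO, and 4948 of them were protein-coding. A tested gene on the same strand lay within 20 kb upstream of 23.7% of the 270 genes, 23.3% of the 5286 and 25.4% of all tested genes.

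The largest rises that held under all 6 scalings were in genes with few or no counts in DMSO. How reads with several matches were counted is not given, so few counts need not mean few transcripts. FRMD1, a FERM-domain gene (chromosome 6, 168055745 to 168081557), had 13.3, 11.4 and 17.9 CPM in THZ1 24 h and 0 counts in each DMSO library. Against a floor of 3 counts over the DMSO group, it was at least 342-fold higher. RHOH, a GTPase-deficient signalling protein of blood cells (chromosome 4, 40191053 to 40246967), had 23.3, 12.9 and 15 CPM in THZ1 24 h and 0 counts in each DMSO library, at least 402-fold higher against the same floor. CLN3, a lysosomal membrane protein, had 15.5, 8.58 and 9.39 CPM in THZ1 24 h against 2 counts over the DMSO group, a ratio of 394 with a 95% counting interval of 108 to 3270. Its fitted log2 fold change was 8.37, or 10.85 without DMSO replicate 3. FCRLB, an Fc receptor-like gene (chromosome 1, 161721563 to 161728143), had 184, 101 and 109 CPM in THZ1 24 h, against 0.577, 0.464 and 0.590 CPM in DMSO. Its log2 fold change was 7.91 ± 0.36 (edgeR, Benjamini-Hochberg adjusted p = 3.99e-11), and the groups did not overlap, which the naming rule required. Over all genes, 140 had 3 counts or fewer over DMSO and at least 1 CPM in each THZ1 24 h library, 35 of them protein-coding. In reverse, 47 genes had 3 counts or fewer over THZ1 24 h and at least 1 CPM in each DMSO library, 38 of them protein-coding. Those intervals and floors cover counting error only.

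The largest falls that held under all 6 scalings left transcripts at very low levels. RPP14, a subunit of the ribonuclease P complex that matures transfer RNA, had 0.121, 0.204 and 0.417 CPM in THZ1 24 h, against 9.90, 11.5 and 10.2 CPM in DMSO. TRIM32, a ubiquitin ligase, had 0.483, 0.817 and 1.04 CPM in THZ1 24 h, against 32.7, 28.3 and 29.2 CPM in DMSO. FAM111B, a protease of replicating cells, had 0.725, 0.306 and 1.46 CPM in THZ1 24 h, against 30.6, 31.6 and 34.8 CPM in DMSO. No library of one group reached the other in these genes, which the naming rule required. Their log2 fold changes were −5.35 ± 0.29, −5.23 ± 0.23 and −5.27 ± 0.30. MAP3K14, the kinase of the noncanonical NF-kB pathway, and IFIT5, an interferon-induced RNA binding protein, had log2 fold changes of −5.23 and −5.17. Without THZ1 24 h replicate 3 the value of FAM111B was −5.96 and that of MAP3K14 −6.06.

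Genes were grouped by role in 55 lists, of which 21 had more members higher than lower under TMM and 33 more lower than higher. The first number was 24 with RLE factors, 27 with upper-quartile factors, 13 with library totals, 1 with the ribosomal protein reference and 0 with the mitochondrial reference. Under all 6 scalings, 23 lists had more members lower than higher, and 0 lists had more higher than lower. That imbalance too depends on the scalings chosen, which shift values further down than up. The shares to read these counts against are 32.3% higher and 44.0% lower, over all genes tested under TMM.

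**Figure D3:**
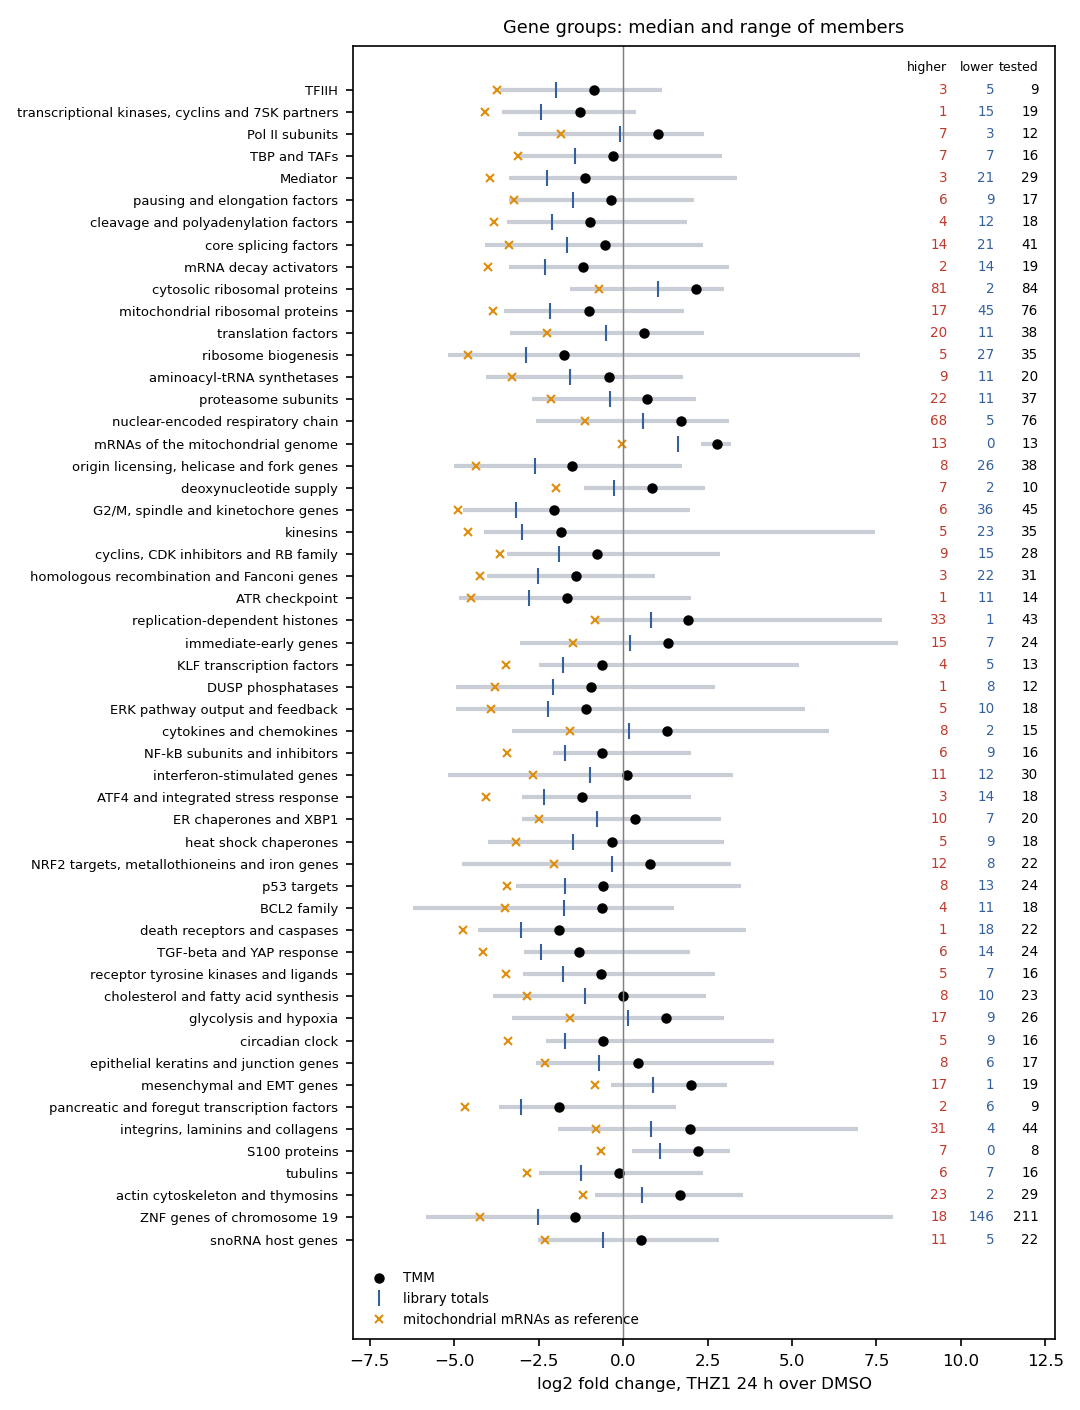
Each row is a gene list. The dot is the median log2 fold change of its tested members, THZ1 24 h over DMSO, under TMM, the bar spans the lowest and the highest member, the blue tick is the median under library totals and the orange cross the median with the mitochondrial reference. Numbers at the right give the members called higher, called lower and tested under TMM. Ribosomal proteins, the respiratory chain and the mitochondrial mRNAs have medians right of zero under TMM and library totals, but left of it with the mitochondrial reference.

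Cytosolic ribosomal proteins, the building blocks of the ribosome, rose almost as a block under TMM. Of 84 tested, 81 rose and 2 fell, with a median log2 fold change of 2.15. In the same order, the split was 68 and 4 under library totals, 21 and 30 against their own sum, and 0 and 43 with the mitochondrial reference, so the balance turned with both of these. RPLP2, of the ribosomal stalk, had 7310, 9170 and 7810 CPM in THZ1 24 h, against 1080, 1080 and 1100 CPM in DMSO. RPL30, of the large subunit, rose by 2.98 ± 0.28. The 2 that fell are paralogs of core subunits: RPL7L1, which works in the assembly of the large subunit, had 58.8, 54.0 and 56.2 CPM in THZ1 24 h, against 110, 243 and 147 CPM in DMSO. RPL39L, a testis-enriched paralog of RPL39, fell by 1.52 ± 0.38 on the log2 scale. Both fell under all 6 scalings.

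Ribosomal protein genes are known for a shared start, a C followed by a run of pyrimidines, which marks mRNAs whose translation follows growth signals. The following sequences run from 60 bases before to 30 bases after the start in the RefSeq promoter table (GRCh38.p14). Capitals mark the run of pyrimidines at the start, of any length, and a sequence all in lower case has none there. The run of RPL3, CTCT, is too short to meet the rule by which the tract was counted, which is given after the sequences.
RPSA, chr3:39406660-39406749, plus strand: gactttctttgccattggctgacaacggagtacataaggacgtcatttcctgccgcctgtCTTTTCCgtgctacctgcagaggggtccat
RPLP0, chr12:120201082-120201171, minus strand: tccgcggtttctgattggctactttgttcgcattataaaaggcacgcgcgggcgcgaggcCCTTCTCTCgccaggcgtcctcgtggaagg
RPL3, chr22:39319594-39319683, minus strand: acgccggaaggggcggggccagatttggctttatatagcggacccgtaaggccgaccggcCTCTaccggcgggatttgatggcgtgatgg
RPS19, chr19:41860195-41860284, plus strand: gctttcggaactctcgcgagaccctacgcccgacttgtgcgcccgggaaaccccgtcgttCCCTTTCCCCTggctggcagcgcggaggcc
EEF1A1, chr6:73521003-73521092, minus strand: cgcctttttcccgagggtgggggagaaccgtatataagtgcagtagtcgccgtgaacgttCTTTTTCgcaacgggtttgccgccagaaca
EEF2, chr19:3985434-3985523, minus strand: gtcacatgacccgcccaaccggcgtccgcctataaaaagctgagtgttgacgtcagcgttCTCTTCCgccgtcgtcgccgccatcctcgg
EIF4B, chr12:53006396-53006485, plus strand: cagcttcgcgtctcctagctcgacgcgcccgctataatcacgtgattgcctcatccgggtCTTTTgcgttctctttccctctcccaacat
EIF4E, chr4:98929104-98929193, minus strand: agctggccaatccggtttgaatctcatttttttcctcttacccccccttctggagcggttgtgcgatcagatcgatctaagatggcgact
LDHA, chr11:18394503-18394592, plus strand: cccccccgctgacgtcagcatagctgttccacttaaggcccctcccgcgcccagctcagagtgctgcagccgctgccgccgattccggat
MRPS26, chr20:3045992-3046081, plus strand: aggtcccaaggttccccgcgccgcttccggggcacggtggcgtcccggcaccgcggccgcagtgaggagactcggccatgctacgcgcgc

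The tract was searched at the annotated start only, as C and 4 pyrimidines (C or T) after it on the gene's strand. It was found in 44 of 67 ribosomal protein genes with a promoter (65.7%), 10 of 29 translation factors (34.5%) and 520 of 9806 tested genes with one (5.30%); over all 27305 promoters of the table the share was 4.04%. Of the 44 ribosomal protein genes with the tract, 43 rose and 0 fell, and of the 23 without it, 22 rose and 1 fell. The medians were 2.22 with the tract and 1.92 without. Of the 455 other protein-coding genes with the tract, 152 rose and 219 fell, with a median of −0.45, against −0.61 over 8930 such genes without it. The tract was thus not shared by all risers, and genes bearing it fell too. EIF4B, a helper of the initiation helicase whose start reads CTTTT, had 106, 114 and 111 CPM in THZ1 24 h, against 477, 435 and 467 CPM in DMSO. A match is a description of letters, not of a site in use. RPL3, RPS19, EEF1A1, EEF2 and EIF4B were chosen for display after their values were seen, and the first 4 rose by 2.36, 2.73, 1.23 and 1.48 on the log2 scale, with each sign turned against the mitochondrial reference.

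Of 38 translation factors tested, 20 rose and 11 fell under TMM, but 11 rose and 21 fell under library totals. EIF3C, a scaffold subunit of the initiation factor that holds the small ribosomal subunit, had 115, 154 and 154 CPM in THZ1 24 h, against 22.5, 30.4 and 26.5 CPM in DMSO. EIF4E, which binds the cap of mRNA, had 11.2, 7.45 and 7.93 CPM in THZ1 24 h, against 101, 71.9 and 95.7 CPM in DMSO. Mitochondrial ribosomal proteins more often fell: of 76 tested, 17 rose and 45 fell, and 37 of them fell under all 6 scalings. MRPS26 and MRPS18B, of the small mitochondrial subunit, fell by 3.53 ± 0.22 and 3.47 ± 0.21 on the log2 scale, whereas MRPL52, of the large one, had 292, 260 and 228 CPM in THZ1 24 h, against 75.4, 63.7 and 86.7 CPM in DMSO.

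Ribosome assembly genes mostly fell. Of 35 ribosome biogenesis genes, 5 rose and 27 fell, with a median of −1.75, and 26 fell under all 6 scalings. NPM1, the abundant nucleolar chaperone, had 7830, 7190 and 6800 CPM in THZ1 24 h, against 4170, 2920 and 4070 CPM in DMSO, but its log2 fold change was −0.15 under library totals. NOP2, an RNA methyltransferase of the nucleolus, was an exception under all scalings, with 22.9, 18.4 and 14.4 CPM in THZ1 24 h, against 0, 0.232 and 0.169 CPM in DMSO, and a log2 fold change of 7.01, or 7.65 without DMSO replicate 2. NOP2 had 10 counts over the DMSO group, and few counts need not mean few transcripts. Of 20 aminoacyl-tRNA synthetases, 9 rose and 11 fell under TMM, but 9 rose and 7 fell with RLE or upper-quartile factors. FARSA, the catalytic subunit of the enzyme for phenylalanine, had 7.37, 2.86 and 5.84 CPM in THZ1 24 h, against 84.5, 89.5 and 94.1 CPM in DMSO, and RARS, the one for arginine, fell by 3.77 ± 0.15. WARS, the enzyme for tryptophan, rose by 1.77 ± 0.11. Of 37 proteasome subunits, 22 rose and 11 fell under TMM, but 4 rose and 21 fell under library totals. PSMD2, of the regulatory base, had 5150, 5250 and 5210 CPM in THZ1 24 h, against 1220, 1080 and 1180 CPM in DMSO, while the ATPase subunit PSMC6 fell by 2.70 ± 0.21.

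The respiratory chain is built from 2 genomes, and both sets rose under TMM. All 13 mRNAs of the mitochondrial genome rose, with a median of 2.77, and all 13 also rose under library totals, while 2 rose against the ribosomal protein reference, and against their own sum 0 rose and 2 fell. MT-CO1, the core of cytochrome oxidase, had 15300, 15100 and 16000 CPM in THZ1 24 h, against 1700, 1820 and 1500 CPM in DMSO. Of 76 nuclear-encoded subunits, 68 rose and 5 fell under TMM, 46 rose and 10 fell under library totals, but 10 rose and 45 fell with the ribosomal protein reference and 0 rose with the mitochondrial one. COX8A, a small subunit of cytochrome oxidase, had 557, 573 and 364 CPM in THZ1 24 h, against 69.5, 51.4 and 64.1 CPM in DMSO. SDHA, the catalytic subunit of succinate dehydrogenase, fell, with 82.7, 80.4 and 77.9 CPM in THZ1 24 h, against 490, 517 and 448 CPM in DMSO.

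In the transcription machinery, which holds the target of the compound, the mRNAs of most kinases and Mediator subunits fell. Of 19 transcriptional kinases, cyclins and 7SK partners tested, 1 rose and 15 fell, and 11 fell under all 6 scalings. CDK7 itself had 5.07, 5.41 and 4.59 CPM in THZ1 24 h, against 67.1, 54.3 and 67.3 CPM in DMSO. CDK9, the kinase that releases paused polymerase, had 16.1, 19.8 and 22.2 CPM in THZ1 24 h, against 50, 38.1 and 47.9 CPM in DMSO. MEPCE, which caps and stabilizes the 7SK RNA that restrains CDK9, had 5.92, 6.94 and 6.68 CPM in THZ1 24 h, against 75.7, 78.5 and 78.2 CPM in DMSO, without overlap in any of the 3. Of 9 TFIIH genes, 3 rose and 5 fell. ERCC3, the TFIIH translocase, fell by 1.92 ± 0.09 and GTF2H3, a core subunit, rose by 1.16 ± 0.10, a rise whose sign turned to −1.03 with the ribosomal protein reference. Of 29 Mediator subunits, which link activators to polymerase, 3 rose and 21 fell. MED13, of the kinase module, had 8.70, 8.98 and 8.56 CPM in THZ1 24 h, against 87.8, 99.4 and 86.2 CPM in DMSO, and MED7, of the middle module, fell by 3.33 ± 0.31.

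RNA polymerase II itself was split. Of 12 subunits, 7 rose and 3 fell under TMM, but 0 rose and 8 fell with the ribosomal protein reference, and 0 rose and 11 fell with the mitochondrial one. POLR2E, a subunit shared by all nuclear polymerases, had 1370, 1370 and 1410 CPM in THZ1 24 h, against 275, 242 and 266 CPM in DMSO. POLR2I rose by 2.14 ± 0.30. The second largest subunit POLR2B, which helps to form the active site, had 58.2, 48.1 and 49.6 CPM in THZ1 24 h, against 227, 191 and 212 CPM in DMSO, and POLR2D, of the stalk, fell by 3.10 ± 0.15. The general factor TBP, which binds the TATA box, had 5.68, 7.45 and 4.28 CPM in THZ1 24 h, against 33.3, 28.7 and 35.3 CPM in DMSO. Of 16 genes of TBP and its associated factors, 7 rose and 7 fell under TMM, and 2 rose and 10 fell under library totals: TAF5 fell by 3.14 ± 0.22, and TAF10 rose by 2.92 ± 0.21.

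Elongation, RNA end formation, splicing and decay factors held members of both directions in each list. Of 17 pausing and elongation factors, 6 rose and 9 fell under TMM, and 7 rose and 7 fell with RLE or upper-quartile factors. LEO1 and RTF1, subunits of the PAF complex that travels with polymerase, fell by 3.39 ± 0.25 and 3.22 ± 0.23, while NELFCD, of the pausing complex NELF, rose by 2.11 ± 0.09 and SSRP1, of the histone chaperone FACT, rose by 1.54 ± 0.08. Both rises turned negative with the ribosomal protein reference, at −0.07 and −0.66. Of 18 cleavage and polyadenylation factors, 4 rose and 12 fell. The intronless gene CSTF2T had 4.35, 5.51 and 4.38 CPM in THZ1 24 h, against 56.7, 52.1 and 47.1 CPM in DMSO, and WDR33, which reads the polyadenylation signal, fell by 2.47 ± 0.16. PCF11, which couples cleavage to termination, had 129, 145 and 139 CPM in THZ1 24 h, against 36.0, 44.2 and 31.6 CPM in DMSO. Of 41 core splicing factors, 14 rose and 21 fell under TMM, but 18 rose and 17 fell with upper-quartile factors. SRSF3, a regulator of exon choice, had 45.4, 46.1 and 38.0 CPM in THZ1 24 h, against 800, 616 and 773 CPM in DMSO, and PRPF4, of the tri-snRNP, fell by 3.16 ± 0.10. SNRPD2, of the ring around the spliceosomal RNAs, rose by 2.37 ± 0.23. Of 19 mRNA decay activators, 2 rose and 14 fell, and 12 fell under all 6 scalings. CNOT2 and CNOT8, of the deadenylase that shortens poly(A) tails, fell by 3.31 ± 0.13 and 3.39 ± 0.23. ZFP36, which recruits that deadenylase to short-lived mRNAs, had 97.8, 98.9 and 110 CPM in THZ1 24 h, against 11.8, 12.4 and 10.8 CPM in DMSO.

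Cell division genes fell in most lists. Of 45 G2/M, spindle and kinetochore genes, 6 rose and 36 fell, and 35 fell under all 6 scalings. KIF11, the motor that separates spindle poles, had 10.3, 12.4 and 14.1 CPM in THZ1 24 h, against 207, 227 and 209 CPM in DMSO. Of 35 kinesins, 5 rose and 23 fell. KIF25 was the exception that rose under all 6 scalings, with 10.3, 10.7 and 11.2 CPM in THZ1 24 h, against 0.0444, 0.0387 and 0.0843 CPM in DMSO. CENPH, of the inner kinetochore, had 184, 243 and 230 CPM in THZ1 24 h, against 60.7, 47.6 and 59.6 CPM in DMSO, a rise that turned negative with the ribosomal protein reference, at −0.19. Of 38 origin licensing, helicase and fork genes, 8 rose and 26 fell. PCNA, the sliding clamp of DNA polymerases (chromosome 20, 5114953 to 5126626), had 12.6, 10.0 and 10.9 CPM in THZ1 24 h, against 278, 206 and 269 CPM in DMSO. Its log2 fold change was −4.49 ± 0.16 (edgeR, Benjamini-Hochberg adjusted p = 5.70e-12). LIG1, the ligase that joins the fragments PCNA helps to make, had 63.3, 85.6 and 98.4 CPM in THZ1 24 h, against 17.8, 32.2 and 23.6 CPM in DMSO, with a negative sign at −0.48 with the ribosomal protein reference.

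Enzymes of deoxynucleotide supply more often rose under TMM, with 7 of 10 higher and 2 lower, but 3 higher and 6 lower under library totals. TYMS, which makes thymidylate, had 145, 173 and 142 CPM in THZ1 24 h, against 27.4, 29.4 and 28.1 CPM in DMSO. RRM2, the inducible subunit of ribonucleotide reductase, had 47.1, 63.4 and 52.7 CPM in THZ1 24 h, against 128, 111 and 123 CPM in DMSO. Repair by homologous recombination and the Fanconi pathway had 3 of 31 genes higher and 22 lower, and of 14 genes of the ATR checkpoint, 1 rose and 11 fell. The riser was TIMELESS, which holds the replication fork together, with 380, 397 and 413 CPM in THZ1 24 h, against 95.6, 105 and 97.8 CPM in DMSO, and a sign that turned to −0.20 with the ribosomal protein reference. CDC25A, the phosphatase that activates CDK2, had 2.42, 2.65 and 2.82 CPM in THZ1 24 h, against 82.3, 68.9 and 79.9 CPM in DMSO. Of 28 genes for cyclins, inhibitors of CDKs and the RB family, 9 rose and 15 fell. CDKN2D, an inhibitor of CDK4 and CDK6, rose by 2.69 ± 0.19, and E2F6, a repressive E2F, fell by 3.45 ± 0.25. Of 43 replication-dependent histone genes, whose mRNAs normally lack a poly(A) tail, 33 rose and 1 fell under TMM, 18 rose and 2 fell under library totals, and the balance turned with the ribosomal protein (10 and 15) and mitochondrial (5 and 16) references. HIST1H2BG had 11.7, 13 and 12.4 CPM in THZ1 24 h, against 0, 0.116 and 0.0421 CPM in DMSO, with a log2 fold change of 7.66, or 8.81 without DMSO replicate 2, and HIST1H2AG rose by 4.21 ± 0.30.

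Immediate-early genes encode short-lived regulators that a stimulus switches on within minutes. Of 24 tested, 15 rose and 7 fell under TMM, but 9 rose and 13 fell with the ribosomal protein reference and 6 rose and 15 fell with the mitochondrial one; 6 rose under all 6 scalings, against 1.87% of all genes. Their promoters are known for CArG boxes, which bind serum response factor, and for TATA boxes. The 3 shown, of EGR1, FOS and JUNB, were chosen after the values were seen, and of these levels are printed for FOS and JUNB only. EGR1 is drawn from 120 bases before to 20 bases after the start, FOS and JUNB from 70 before to 20 after (RefSeq, GRCh38.p14); capitals mark 2 CArG boxes in EGR1 and a TATA box in the others.
EGR1, chr5:138465359-138465498, plus strand: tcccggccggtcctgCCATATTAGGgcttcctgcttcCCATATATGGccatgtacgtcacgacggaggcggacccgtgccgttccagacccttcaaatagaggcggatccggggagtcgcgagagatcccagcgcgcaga
FOS, chr14:75278758-75278847, plus strand: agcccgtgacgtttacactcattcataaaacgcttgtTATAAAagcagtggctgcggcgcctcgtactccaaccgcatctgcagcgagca
JUNB, chr19:12791416-12791505, plus strand: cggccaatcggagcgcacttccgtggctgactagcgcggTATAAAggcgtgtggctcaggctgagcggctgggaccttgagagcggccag

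The CArG boxes of EGR1 begin 105 and 83 bases before the start, and the TATA boxes begin 33 bases before it in FOS and 31 in JUNB. TATAAA, searched on both strands from 250 bases before to 50 after the start, was in 5 of 17 immediate-early promoters (29.4%), 9 of 78 of the genes higher under all 6 scalings (11.5%), 4.81% of those lower under all 6 and 5.22% of all tested genes. A CArG box, searched likewise, was in 2 of 17 immediate-early promoters (11.8%) and 2 of 78 of the genes higher under all 6 scalings (2.56%). It was in 1.12% of those lower under all 6 and 1.03% of all tested genes. The GC box GGGCGG was in 57.7% of promoters of the genes higher under all 6 scalings, in 70.8% of those lower and in 71.1% of all tested. No match of a motif says only that its letters are not in the window. FOS had 397, 341 and 339 CPM in THZ1 24 h, against 2.49, 0.851 and 1.73 CPM in DMSO. JUNB, a partner in the AP-1 factor, had 550, 461 and 512 CPM in THZ1 24 h, against 5.64, 4.57 and 6.40 CPM in DMSO. EGR4, of the EGR zinc finger family, had 15.1, 15.1 and 18.2 CPM in THZ1 24 h, against 0.0888, 0.0774 and 0.126 CPM in DMSO. The AP-1 family did not move as 1, since FOSL2 had 4.23, 3.68 and 1.36 CPM in THZ1 24 h, against 19.5, 32.3 and 24.8 CPM in DMSO.

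Other regulators of signalling went both ways. KLF10, a TGF-beta inducible repressor (chromosome 8, 102648779 to 102655902), had 2560, 1920 and 1920 CPM in THZ1 24 h, against 60.2, 48.6 and 62.6 CPM in DMSO. Its log2 fold change was 5.22 ± 0.22 (edgeR, Benjamini-Hochberg adjusted p = 2.10e-11), and it rose under all 6 scalings. Of 13 KLF genes, 4 rose and 5 fell, and 5 rose and 4 fell with RLE or upper-quartile factors; KLF13 fell by 2.49 ± 0.19. Of 12 DUSP phosphatases, which switch off MAP kinases, 1 rose and 8 fell, and the 8 fell under all 6 scalings. DUSP16 had 2.78, 1.12 and 2.09 CPM in THZ1 24 h, against 15.5, 17.2 and 16.8 CPM in DMSO. Of 18 genes of ERK output and feedback, 5 rose and 10 fell; SPRY2, an inhibitor of the pathway, fell by 2.03 ± 0.20. Of 16 NF-kB subunits and inhibitors, 6 rose and 9 fell under TMM, but 6 rose and 5 fell with upper-quartile factors. NFKBIA, the inhibitor that NF-kB itself induces, had 234, 166 and 160 CPM in THZ1 24 h, against 47.4, 39.6 and 51.2 CPM in DMSO, with a sign that turned to −0.17 with the ribosomal protein reference. TNIP1, a partner of the deubiquitinase A20, fell by 2.07 ± 0.20.

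Of 30 interferon-stimulated genes, 11 rose and 12 fell under TMM, but 14 rose and 11 fell with RLE or upper-quartile factors. DDX58, the sensor RIG-I, had 1.69, 1.12 and 1.88 CPM in THZ1 24 h, against 20, 16.5 and 18.8 CPM in DMSO, while HLA-C, which presents antigen, had 302, 260 and 250 CPM in THZ1 24 h, against 33.1, 25.5 and 26.5 CPM in DMSO. Among 16 receptor tyrosine kinases and ligands, 5 rose and 7 fell. MET, the hepatocyte growth factor receptor, had 20.9, 28.3 and 31.4 CPM in THZ1 24 h, against 138, 146 and 131 CPM in DMSO. FGFR4, a fibroblast growth factor receptor, had 71.7, 84.0 and 94.0 CPM in THZ1 24 h, against 13.5, 12.7 and 11.5 CPM in DMSO, and the ligand PDGFA rose by 2.67 ± 0.21. The groups did not overlap in any of these.

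Of 18 genes of the ATF4 and integrated stress response, 3 rose and 14 fell, and 10 fell under all 6 scalings. PHGDH, the entry enzyme of serine synthesis, was a riser, with 1040, 846 and 863 CPM in THZ1 24 h, against 244, 189 and 246 CPM in DMSO. Among 20 genes of ER chaperones and XBP1, 10 rose and 7 fell under TMM, but 8 rose and 11 fell under library totals: XBP1, the factor of the unfolded protein response, had 11, 9.29 and 9.08 CPM in THZ1 24 h, against 86.3, 65.9 and 82.0 CPM in DMSO, whereas the disulfide isomerase PDIA6 had 1390, 1530 and 1510 CPM in THZ1 24 h, against 207, 195 and 188 CPM in DMSO. Cytosolic chaperones split too. Of 18, 5 rose and 9 fell under TMM, and 8 rose and 8 fell with upper-quartile factors. HSP90AA1, the inducible HSP90, had 19300, 19000 and 19300 CPM in THZ1 24 h, against 4990, 4760 and 5190 CPM in DMSO, and the small heat shock protein HSPB1 rose by 2.99 ± 0.18. DNAJB1, a co-chaperone of HSP70, fell by 3.08 ± 0.15, in the same direction as HSPA8. The rise of HSP90AA1 turned negative with the ribosomal protein reference, at −0.24.

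Antioxidant and iron genes went both ways. KEAP1, which marks the factor NRF2 for degradation, had 3.14, 2.45 and 4.38 CPM in THZ1 24 h, against 90.8, 85.9 and 97.9 CPM in DMSO. GCLC, which makes the precursor of glutathione and is an NRF2 target, had 2.29, 4.70 and 2.30 CPM in THZ1 24 h, against 52.2, 42.8 and 52.9 CPM in DMSO. FTH1, the ferritin heavy chain, had 1020, 1470 and 1360 CPM in THZ1 24 h, against 114, 166 and 139 CPM in DMSO. Over the 22 NRF2, metallothionein and iron genes tested, 12 rose and 8 fell under TMM, and 9 rose and 10 fell under library totals.

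Of 22 death receptors and caspases, 1 rose and 18 fell, and 17 fell under all 6 scalings. TNFRSF1A, the main receptor of TNF, had 3.26, 2.55 and 3.65 CPM in THZ1 24 h, against 61.2, 61.8 and 61.5 CPM in DMSO. The riser was TNFRSF10D, a decoy receptor of TRAIL that does not signal death, with 212, 217 and 200 CPM in THZ1 24 h, against 19.6, 12.5 and 18.1 CPM in DMSO, and it rose under all 6 scalings. Of 18 BCL2 family genes, 4 rose and 11 fell under TMM, but 4 rose and 6 fell with RLE or upper-quartile factors. Of 24 p53 targets, 8 rose and 13 fell under TMM, and 10 rose and 10 fell with upper-quartile factors: AEN, a nuclease of apoptosis, fell by 2.58 ± 0.15, and GDF15, a secreted stress cytokine, had 34.8, 13.1 and 15.8 CPM in THZ1 24 h, against 1.73, 2.28 and 1.60 CPM in DMSO.

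In metabolism, 17 of 26 glycolysis and hypoxia genes rose and 9 fell under TMM, but 4 rose and 16 fell with the ribosomal protein reference, and 0 rose and 19 fell with the mitochondrial one. PFKL, the liver-type phosphofructokinase, had 384, 463 and 512 CPM in THZ1 24 h, against 59.7, 79.8 and 66.4 CPM in DMSO. HK2, the inducible hexokinase at the head of the pathway, fell by 2.43 ± 0.13, as did LDHA at its end. Of 23 sterol and fatty acid synthesis genes, 8 rose and 10 fell under TMM, 10 rose and 10 fell with RLE factors, and 10 fell under all 6 scalings. SQLE, which makes the first sterol precursor with oxygen, had 10.4, 11.2 and 10.2 CPM in THZ1 24 h, against 172, 135 and 155 CPM in DMSO, and MVK, the mevalonate kinase, fell by 3.63 ± 0.24. SCD, which puts a double bond into fatty acids, had 1930, 2610 and 2570 CPM in THZ1 24 h, against 452, 481 and 358 CPM in DMSO. Of 16 circadian clock genes, 5 rose and 9 fell. CLOCK, an activator, fell by 2.28 ± 0.13, and CRY2, a repressor, fell by 2.24 ± 0.39, while BHLHE40, a repressor of clock genes, had 384, 413 and 441 CPM in THZ1 24 h, against 18.3, 18.1 and 19.3 CPM in DMSO, and NR1D1, the REV-ERB alpha repressor, rose by 3.64 ± 0.45. BHLHE40 rose under all 6 scalings.

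Of 44 integrins, laminins and collagens, 31 rose and 4 fell under TMM, 21 rose and 8 fell under library totals, while 2 rose and 12 fell with the ribosomal protein reference and 0 rose and 26 fell with the mitochondrial one. ITGB1, the common beta chain of integrins, had 5850, 6230 and 6130 CPM in THZ1 24 h, against 821, 796 and 754 CPM in DMSO. COL18A1, a basement membrane collagen, had 18.6, 47.6 and 72.1 CPM in THZ1 24 h, against 2.35, 9.48 and 2.53 CPM in DMSO, and its log2 fold change was 3.26 ± 0.71, or 4.24 without DMSO replicate 2. Of 29 genes of the actin cytoskeleton and thymosins, 23 rose and 2 fell under TMM, but 3 rose and 17 fell with the ribosomal protein reference. CFL1, which severs actin filaments, had 4410, 4300 and 4110 CPM in THZ1 24 h, against 754, 580 and 726 CPM in DMSO, and MYL9, a myosin light chain, rose by 2.54 ± 0.15. Of 8 S100 proteins, 7 rose and 0 fell under TMM, and 0 rose and 3 fell with the mitochondrial reference; S100A10 rose by 3.18 ± 0.28. Of 19 mesenchymal genes, 17 rose and 1 fell under TMM, but 0 rose and 6 fell with the ribosomal protein reference; FN1 rose by 3.07 ± 0.51 and TAGLN by 2.49 ± 0.10. Among 16 tubulins, 6 rose and 7 fell under TMM, but 6 rose and 5 fell with upper-quartile factors; TUBB6 fell by 2.44 ± 0.12, and under all 6 scalings.

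Epithelial genes were mixed, with 8 of 17 higher and 6 lower under TMM, but 4 higher and 9 lower under library totals. EPCAM, an epithelial adhesion molecule, had 68.4, 63.8 and 55.1 CPM in THZ1 24 h, against 15.6, 10.1 and 13.5 CPM in DMSO, and DSG2, a desmosomal cadherin, rose by 2.17 ± 0.12. The tight junction genes TJP1 and CLDN1 fell by 2.57 ± 0.16 and 2.35 ± 0.14. Of 9 pancreatic and foregut transcription factors, 2 rose and 6 fell. GATA4 had 0.725, 0.715 and 1.15 CPM in THZ1 24 h, against 10.0, 13.3 and 9.73 CPM in DMSO.

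Zinc finger genes of chromosome 19, mostly KRAB repressors of repeats, formed the longest list and had more members lower than higher under all 6 scalings. Of 211 tested, 18 rose and 146 fell, and 127 fell under all 6 scalings. ZNF146 had 13.9, 8.58 and 9.39 CPM in THZ1 24 h, against 183, 178 and 192 CPM in DMSO, and ZNF224, one of the risers, had 17.1, 18.1 and 13.7 CPM in THZ1 24 h, against 2.44, 3.21 and 2.65 CPM in DMSO. Host genes of small nucleolar RNAs, with 22 tested, gave 11 higher and 5 lower under TMM and 7 higher and 12 lower under library totals. SNHG6 had 565, 525 and 455 CPM in THZ1 24 h, against 84.9, 61.6 and 80.5 CPM in DMSO, and SNHG16 had 12.1, 13.3 and 11.9 CPM in THZ1 24 h, against 87.7, 59.3 and 65.8 CPM in DMSO. By class of gene, the median log2 fold change was 1.87 over 339 processed pseudogenes, 0.33 over 564 lincRNAs, 0.31 over 645 antisense RNAs and −0.52 over 12212 protein-coding genes. Processed pseudogenes are copies of mRNAs, many of ribosomal proteins, and their reads may come from the parent gene.

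The change also followed the length of the mature transcript. Protein-coding genes whose longest transcript is under 1 kb had a median log2 fold change of 1.53 (292 genes, 206 higher and 35 lower). The medians fell in order through 0.39, −0.32, −0.60 and −0.90 to −1.05 at 8 kb and over (1093 genes, 179 higher and 646 lower). Leaving out ribosomal protein and respiratory chain genes, the shortest class still had a median of 1.5. Each doubling of transcript length went with a change of −0.48, −0.38 and −0.35 log2 units in the THZ1 24 h libraries relative to the DMSO mean, and with −0.08, 0.15 and −0.07 in the DMSO libraries, so DMSO replicate 2 leaned the other way from its own group. DMSO replicate 2 also had the lowest ribosomal protein share of its group, and its part in the length trend was not tested beyond these values per library. By the length of the whole gene the trend was weaker: medians were 0.23 under 5 kb, −0.31, −0.63, −0.70, −0.76 and −0.47 at 200 kb and over. Genes of like transcript length did not all move the same way, and the part of length in a gene's direction was not tested. Among genes with transcripts of 1 to 2 kb, 34 of 34 cytosolic ribosomal protein genes rose, whereas 6 of 36 mitochondrial ribosomal protein genes rose and 25 fell.

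**Figure D4:**
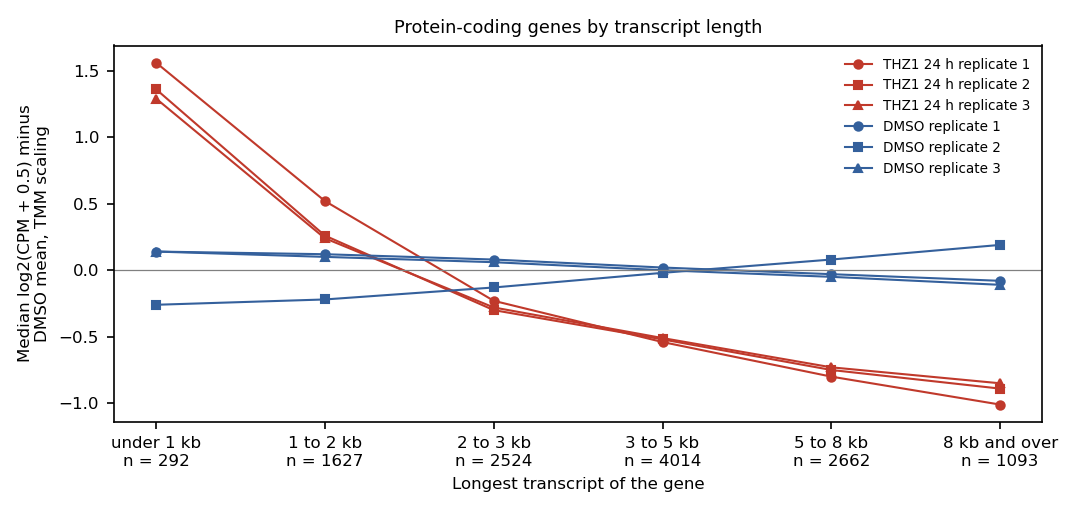
Median of log2(CPM + 0.5) minus the mean of the DMSO libraries (y axis, TMM scaling) over protein-coding genes in 6 classes of longest transcript length (x axis), with a line for each library. The THZ1 24 h lines run from 1.56, 1.36 and 1.29 under 1 kb down to −1.01, −0.89 and −0.85 at 8 kb and over; the DMSO lines stay within 0.26 of zero, with replicate 2 tilted opposite to replicates 1 and 3.

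A few abundant genes changed little under TMM. XPOT, the exporter of transfer RNA, had 463, 487 and 471 CPM in THZ1 24 h, against 512, 446 and 511 CPM in DMSO, and its log2 fold change was −0.05 ± 0.10. NUCKS1, DNAJB6, TM9SF3 and NCL, the nucleolar protein nucleolin, had values of 0.07 ± 0.10, −0.03 ± 0.09, 0.01 ± 0.09 and 0.02 ± 0.19. None of the 5 passed the test under TMM, which does not show that they were unchanged. With the mitochondrial reference the 5 were at −2.79 to −2.91. ACTB, the beta actin often used as a reference gene, had 4050, 5020 and 4900 CPM in THZ1 24 h, against 3750, 3900 and 3650 CPM in DMSO, a log2 fold change of 0.31 ± 0.11 that was −0.82 under library totals.

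**Figure D5:**
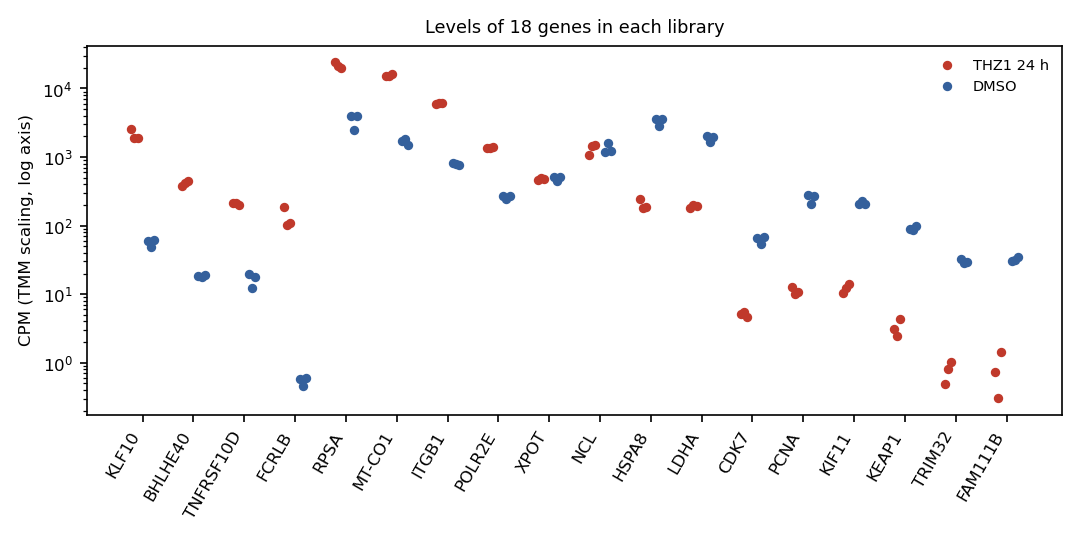
Level of 18 genes in CPM (TMM scaling, log axis) in each THZ1 24 h library, left, and each DMSO library, right of it. KLF10, BHLHE40, TNFRSF10D and FCRLB were higher in THZ1 24 h under all 6 scalings, RPSA, MT-CO1, ITGB1 and POLR2E were higher under TMM but not under all 6, XPOT and NCL overlap between the groups, and the last 8 genes were lower under all 6.

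Against THZ1 4 h, a contrast that does not use DMSO, THZ1 24 h had 4543 genes higher (31.4%) and 5166 lower (35.7%). Under library totals the counts were 2292 and 8175, and the gene groups of this contrast were counted under TMM only. Of 24 immediate-early genes, 20 were higher and 1 lower, with a median of 2.97. KLF10 had 2560, 1920 and 1920 CPM in THZ1 24 h, against 13.6, 8.54 and 9.59 CPM in THZ1 4 h, a log2 fold change of 7.66 (edgeR, Benjamini-Hochberg adjusted p = 8.72e-12). Of 211 zinc finger genes of chromosome 19, 82 were higher and 36 lower than in THZ1 4 h. Genes of the integrated stress response were 11 higher and 5 lower of 18. Other mRNAs were high at 4 h and far lower at 24 h. PCNA had 12.6, 10.0 and 10.9 CPM in THZ1 24 h, against 314, 268 and 315 CPM in THZ1 4 h. NASP, a histone chaperone, had 6.16, 7.66 and 8.24 CPM in THZ1 24 h, against 157, 202 and 177 CPM in THZ1 4 h. NLRP2, an innate immune sensor, and NUP85, of the nuclear pore, had log2 fold changes of −4.49 and −4.32, THZ1 24 h over THZ1 4 h. Others were low at both times: XBP1 had 11, 9.29 and 9.08 CPM in THZ1 24 h, against 8.30, 7.53 and 6.52 CPM in THZ1 4 h, and MEPCE had 5.92, 6.94 and 6.68 CPM in THZ1 24 h, against 10.1, 8.33 and 7.12 CPM in THZ1 4 h. This contrast shares its THZ1 24 h libraries with the one against DMSO, so the counts are not independent.

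Against YKL-5-124 at the same dose and time, THZ1 24 h had 4601 genes higher (31.8%) and 6376 lower (44.1%). Ribosomal proteins were 82 higher and 2 lower of 84, with a median of 2.71, and all 13 mitochondrial mRNAs were higher, with a median of 2.77. Zinc finger genes of chromosome 19 were 11 higher and 157 lower of 211. CDK7 had 5.07, 5.41 and 4.59 CPM in THZ1 24 h, against 75.4, 65.2 and 54.5 CPM in YKL-5-124 24 h. PCNA had 12.6, 10.0 and 10.9 CPM in THZ1 24 h, against 134, 129 and 107 CPM in YKL-5-124 24 h. Of 43 replication-dependent histones, 20 were higher and 10 lower. HIST1H2AG had 45.9, 69.4 and 71.3 CPM in THZ1 24 h, against 46.7, 44.0 and 40.7 CPM in YKL-5-124 24 h, a log2 difference of 0.51 that missed the threshold (edgeR, Benjamini-Hochberg adjusted p = 0.0853), which does not show that the compounds act alike on it. KIF11, SQLE and TRIM32 had log2 fold changes of −3.82, −4.58 and −5.13, THZ1 24 h over YKL-5-124 24 h. RRM2 was at 47.1, 63.4 and 52.7 CPM in THZ1 24 h, against 61.2, 55.2 and 63.5 CPM in YKL-5-124 24 h, and its groups overlapped. Library totals gave 1998 genes higher and 9927 lower in this contrast, and its gene groups were counted under TMM only.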

How the data were processed

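RNA of 15 libraries was sequenced. The authors deposited raw read counts per gene in 1 table, not normalized. The submitters' processing notes name the aligner STAR (2.6.1d), the counter featureCounts (1.5.0-p3), the package DESeq2 (1.24.0) and the genome build GRCh38. How reads with several matches were counted, and whether strand was used, is not given in the sources read. Groups came from the labels. Genes passed filterByExpr at a count minimum of 10 and a total minimum of 15; these hold 99.9% of all counts. The 15 libraries were fitted together by group in edgeR 4.0.16 (R 4.3.3) with TMM scaling, and the quasi-likelihood F test was adjusted by Benjamini-Hochberg over all 14461 genes at 0.05. SE is the log2 fold change divided by the root of F, and CPM used TMM-scaled totals. The test was run on counts simulated from the DMSO means, with folds set in both directions in a small part of the genes. That setting lacks the composition shift of these data, so it cannot speak to the choice of scaling. Transcript lengths came from GENCODE release 29, which held 100% of the gene IDs. Promoters came from RefSeq, for 9806 genes.

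The alternatives were RLE, upper-quartile, total, ribosomal protein and mitochondrial mRNA scaling, DESeq2 1.42.0, no filter, the 2 groups alone, a replicate block, a transcript length covariate and each library left out. The comparison, the members and the 55 gene lists were chosen with earlier results of these data known, so no list was given a p. Genes were named by rule. The rule took the 8 largest rises and falls among protein-coding genes called under all 6 scalings. Those needed a mean CPM of at least 5 and groups that did not overlap. It also took the 8 largest gains and losses in share and the called members furthest from zero in each list. CDK7 and its relatives and the mitochondrial mRNAs were included. So were the most abundant nuclear genes with a TMM log2 fold change near zero, and the largest differences in the 2 direct contrasts. The rule named 246 genes, 84 of which overlap another tested gene, and a selection is printed. FOS, JUNB, RPL3, RPS19, EEF1A1, EEF2, EIF4B, KRT8, KRT18, CDH1 and VIM were added after their values were seen.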

Additional observations from a re-analysis of the deposited data

Results flagged for a closer look

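Of the genes printed here and in the results, some lay on opposite sides of DMSO at the 2 times of THZ1 under TMM. This held in every library, with a called difference between the times. Above DMSO at 24 h and below it at 4 h were 10 of these genes, whose log2 differences, THZ1 24 h over THZ1 4 h, were EGR4 9.50, PCF11 3.33, ZFP36 4.77, KLF10 7.66, NFKBIA 4.90, GDF15 5.00, PDGFA 5.04, BHLHE40 6.79, NR1D1 6.70 and ZNF224 3.73. Below DMSO at 24 h and above it at 4 h were 4, at LDHA −3.73, NASP −4.59, MET −2.69 and KRT18 −0.88. KLF10 averaged 2130 ± 368 CPM in THZ1 24 h, 10.6 ± 2.66 CPM in THZ1 4 h and 57.1 ± 7.45 CPM in DMSO (SD, n = 3 each). GDF15 averaged 21.2 ± 11.8 CPM in THZ1 24 h, 0.657 ± 0.297 CPM in THZ1 4 h and 1.87 ± 0.362 CPM in DMSO. LDHA averaged 190 ± 7.4 CPM in THZ1 24 h, 2530 ± 179 CPM in THZ1 4 h and 1870 ± 184 CPM in DMSO. MET averaged 26.9 ± 5.4 CPM in THZ1 24 h, 173 ± 18.5 CPM in THZ1 4 h and 138 ± 7.42 CPM in DMSO. Among all 9389 genes averaging 5 CPM or more, 116 lay above DMSO at 24 h and below it at 4 h, and 385 the reverse. The sides of DMSO were taken under TMM only, and those at 4 h were not recomputed under another scaling. At 24 h, PCF11, NFKBIA, PDGFA and ZNF224 turned negative against DMSO with the mitochondrial reference. EGR4, ZFP36, KLF10, GDF15, BHLHE40 and NR1D1 kept their sign with it, but ZFP36, GDF15 and NR1D1 were not called higher with it. GDF15 was at 0.69 and NR1D1 at 0.82 there. The DMSO libraries carry no time, and groups of 3 were not tested for single outlying libraries.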

How the results depend on the processing

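Counts of genes higher and lower in THZ1 24 h moved over 1.5 times only with library totals and the 2 internal references, among the settings run. Against DMSO (4668 and 6356 under TMM) they were 2266 and 9384 with library totals, 573 and 11731 with the ribosomal protein reference, and 270 and 12871 with the mitochondrial one. Against THZ1 4 h (4543 and 5166) they were 2292 and 8175, 752 and 10393, and 497 and 11434 in the same order. Against YKL-5-124 24 h (4601 and 6376) they were 1998 and 9927, 277 and 12946, and 254 and 12927. DESeq2 gave 5472 and 5504 against DMSO, no filter 5657 and 6832, the 2 groups alone 4751 and 5945, and a transcript length covariate 5070 and 6789. That covariate was each library's length slope relative to the mean of its own group. It therefore cannot take up the length trend between the groups, and says nothing on how the calls depend on it. With the 4 scalings other than the internal references, 2266 genes instead of 270 were higher under every scaling. Lists with more members higher than lower numbered 21 under TMM, 13 with library totals, 1 with the ribosomal protein reference and 0 with the mitochondrial one, and lists with more lower numbered 33, 52 and 54 under TMM and the last pair. The mitochondrial genome's gain in share was 3.07 percentage points, or 1.75 over protein-coding genes. The loss in effective genes was −2330, or −2610 without the 20 most abundant genes. The short and long gene spans differed by 0.71 in median log2 fold change, or 1.03 at a mean CPM of at least 5. 

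With the mitochondrial reference, the log2 fold changes against DMSO that changed sign were RPSA −0.23, RPLP0 −0.65, RPL3 −0.51, RPS19 −0.14, FTL −0.25, HSP90AA1 −0.91, ACTB −2.54, NCL −2.82, NUCKS1 −2.79, TM9SF3 −2.85, GTF2H3 −1.70, POLR2E −0.45, POLR2I −0.69, NELFCD −0.75, SSRP1 −1.31, PCF11 −0.95, SNRPD2 −0.50, EEF1A1 −1.64, EEF2 −1.36, EIF3C −0.43, MRPL52 −1.08, WARS −1.09, NPM1 −1.90, PSMD2 −0.69, LIG1 −1.08, TYMS −0.41, CENPH −0.90, CDKN2D −0.15, TIMELESS −0.85, NFKBIA −0.84, PHGDH −0.84, FGFR4 −0.12, PDGFA −0.16, SCD −0.38, PFKL −0.12, EPCAM −0.61, DSG2 −0.67, TAGLN −0.36, CFL1 −0.22, MYL9 −0.30, ZNF224 −0.28, SNHG6 −0.10, KRT8 −1.53, VIM −2.08, CHGB −0.12 and SYP −0.87. With the ribosomal protein reference, the log2 fold changes against DMSO that changed sign were HSP90AA1 −0.24, ACTB −1.89, NCL −2.20, NUCKS1 −2.11, TM9SF3 −2.18, GTF2H3 −1.03, POLR2I −0.08, NELFCD −0.07, SSRP1 −0.66, PCF11 −0.34, EEF1A1 −0.94, EEF2 −0.72, MRPL52 −0.39, WARS −0.41, NPM1 −1.20, PSMD2 −0.02, LIG1 −0.48, CENPH −0.19, TIMELESS −0.20, NFKBIA −0.17, PHGDH −0.16, DSG2 −0.04, KRT8 −0.85, VIM −1.44 and SYP −0.24. With library totals, the log2 fold changes against DMSO that changed sign were ACTB −0.82, NCL −1.12, NUCKS1 −1.05, TM9SF3 −1.12, NPM1 −0.15 and VIM −0.37. With RLE factors, the log2 fold changes against DMSO that changed sign were XPOT 0.27 and DNAJB6 0.29. With upper-quartile factors, the log2 fold changes against DMSO that changed sign were XPOT 0.35 and DNAJB6 0.36. With DESeq2, the log2 fold changes against DMSO that changed sign were XPOT 0.27 and DNAJB6 0.29. These follow from the shift that each scaling gives to all genes.

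The replicate block gave 4816 higher and 6548 lower against DMSO, 4732 and 5376 against THZ1 4 h, and 4724 and 6608 against YKL-5-124 24 h. Libraries of the same number correlated at 0.44, 0.23 and −0.32 between THZ1 24 h and DMSO, so the numbers were not taken as pairs. Leaving out each library kept the call and direction of 150 of 151 named genes against DMSO; ACTB was at 0.28 (edgeR, Benjamini-Hochberg adjusted p = 0.0559) without DMSO replicate 3. Low counts limit the genes with few or no counts in 1 group, whose fold changes are least certain.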
